A study of Homo sapiens with 9 samples.

Results

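Interferon-stimulated effector genes encode the proteins by which a cell limits virus growth once interferon has reached it. Expression of 51 such genes was followed in HMEC-1, an immortalised line of human dermal microvascular endothelial cells. The genes were taken by symbol from a list of antiviral and other effectors induced by type I interferon. All 51 were present among the 29740 genes of the count table, and all 51 were among the 14740 genes that passed the expression filter and were tested. The study asked how trimethylamine-N-oxide (TMAO), a metabolite formed in the liver from a product of gut bacteria, alters endothelial gene expression over time. RNA was sequenced from untreated cells (CTRL), from cells given 50 µM TMAO for 24H and from cells given 50 µM TMAO for 48H, with 3 libraries in each group. According to the methods, cells were kept in medium of reduced serum during treatment. Untreated cells of the 2 time-points form a single control group there, so how long each control was cultured is unknown, and an effect of culture time cannot be told apart from that of TMAO.

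Type I interferons bind a receptor made of IFNAR1 and IFNAR2, which activates the kinases JAK1 and TYK2. These kinases set in motion a complex of transcription factors, with IRF9 as its DNA-binding subunit, that binds the interferon-stimulated response element (ISRE) in the promoters of target genes. The proteins made from those genes block entry, translation, replication and release of viruses, and several of them are made at a low level without infection. Endothelial cells carry the receptor and respond to interferon.

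The ISRE core was searched for in the promoters of the members, since it is the sequence through which this pathway is known to act. RefSeq promoters (GRCh38.p14, from 250 bases before to 50 bases after the gene start) were found for 41 of the 51 members. They were searched on both strands for GAAA, any 2 bases (NN) and GAAA again, which reads TTTC, NN and TTTC on the other strand, and overlapping matches were kept. The core was present in 27 of the 41 member promoters (65.9%), against 996 of 27305 promoters in the whole table (3.65%) and 303 of the 10395 promoters of tested genes (2.91%). The promoter of IFI44L, the member with the highest log2 fold change at 48H, is shown first because it holds the core in both copies of a repeated stretch. Capitals mark the core, and the 250 bases before the gene start, chr1:78620198-78620447 on the plus strand, read 5′ to 3′.

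IFI44L: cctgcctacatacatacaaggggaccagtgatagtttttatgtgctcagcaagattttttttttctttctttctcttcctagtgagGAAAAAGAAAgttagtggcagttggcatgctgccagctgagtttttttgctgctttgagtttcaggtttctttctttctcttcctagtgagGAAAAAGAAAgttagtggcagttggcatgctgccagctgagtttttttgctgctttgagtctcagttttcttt

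The next sequences are those of 7 members that rose at 48H, each cut from its promoter around the core, read along the strand of the gene and with the core in capitals.
ISG15, chr1:1013370-1013419, plus strand: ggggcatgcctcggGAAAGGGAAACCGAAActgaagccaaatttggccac
IFIT1, chr10:89392500-89392549, plus strand: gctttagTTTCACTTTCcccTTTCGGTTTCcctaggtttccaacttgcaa
IFITM1, chr11:313980-314029, plus strand: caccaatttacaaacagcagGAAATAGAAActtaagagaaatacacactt
HERC5, chr4:88457025-88457074, plus strand: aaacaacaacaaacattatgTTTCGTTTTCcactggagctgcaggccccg
BST2, chr19:17405725-17405774, minus strand: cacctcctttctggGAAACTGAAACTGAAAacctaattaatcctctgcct
EPSTI1, chr13:42992262-42992311, minus strand: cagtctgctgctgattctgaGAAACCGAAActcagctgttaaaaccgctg
DDX60, chr4:168318776-168318825, minus strand: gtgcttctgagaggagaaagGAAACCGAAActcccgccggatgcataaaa
In ISG15 and BST2 the capitals run over 2 overlapping matches, and in IFIT1 2 separate matches lie side by side on the other strand. A further 3 promoters are shown because they belong to members that hold the core and did not rise at 48H.
PARP12, chr7:140062952-140062981, minus strand: tttcgccggcccggggccgcTTTCGGTTTC
ISG20, chr15:88638927-88638976, plus strand: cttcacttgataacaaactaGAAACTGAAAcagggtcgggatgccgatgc
LGALS3BP, chr17:78979952-78980001, minus strand: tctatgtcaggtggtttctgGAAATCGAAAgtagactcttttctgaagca
A match is a run of letters and was not tested as a binding site.

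Total counts per library ranged from 25205756 to 36927373. Ribosomal RNA, counted on 6 genes, took 31.5% of TMAO 24H replicate 1 and from 1.64% to 7.46% of each other library, and removing those genes before normalisation left the numbers of members that passed unchanged in all 3 comparisons. Values below are normalised counts, meaning counts divided by the effective library size and brought to a common library size of 30416647. Levels of different genes are not compared, because these counts are not corrected for gene length. Genes were tested with edgeR's quasi-likelihood test on all 9 libraries together, and a gene passed where p was under 0.05 after Benjamini-Hochberg adjustment over all 14740 tested genes. Log2 fold changes are given with their standard error (SE). The labels do not say whether the 3 libraries of a group came from separate cultures, so the p-values measure the spread between libraries, which may be technical.

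After 48H of TMAO treatment, 47 of the 51 members had a higher level than in controls and 4 had a lower one. The rise passed the test for 36 members and the fall for 1 (PARP12), where 5.14% of all tested genes passed with a rise and 5.29% with a fall. At least a 1.4-fold rise, the fold that the methods asked for, was met by 19 members that passed, against 0.882% of tested genes. A rise of at least 2-fold was met by 7 of them, and the share of tested genes at that fold was not counted. The median log2 fold change of the 51 members was 0.44, against 0.0040 for all tested genes. Without adjustment, 41 members had a higher and 3 a lower level at p under 0.05, against 13.2% and 12.6% of tested genes. In 40 members the 3 libraries at 48H lay above all 3 control libraries and in 2 below them, as they did for 14.7% and 13% of tested genes. For each of the 36 members that rose, the 3 libraries at 48H also lay above all 3 libraries at 24H. These members were picked by their rise in the same 48H libraries. The share among all tested genes that rose was not counted.

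After 24H, 36 of the 51 members had a lower level than in controls and 15 a higher one, and 0 passed the edgeR test in either direction. Among all tested genes 0% passed with a rise and 0.095% with a fall. Without adjustment for multiple tests, 11 members were lower and 0 above controls at p under 0.05, where 4.47% of tested genes were lower and 2.77% higher. DESeq2 passed 1 member at 24H, ISG15, which was lower. The median log2 fold change of the members was -0.058, against -0.00042 for all tested genes. The 3 libraries at 24H lay below all 3 controls for 9 members, where 7.52% of tested genes had this separation, and above them for 0 members, against 6.73% of tested genes.

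Both treated groups were compared with the same controls, so the time-points were also tested directly against each other. At 48H, 49 of the 51 members had a higher level than at 24H and 2 a lower one. The difference passed as a rise for 37 members and as a fall for 0, by edgeR and by DESeq2 alike. Without adjustment, 44 members were higher and 0 lower, against 11.6% and 10.5% of tested genes. In this comparison 3.77% of tested genes passed with a rise and 3.77% with a fall. The rise reached 1.4-fold for 19 members, against 0.862% of tested genes, and the median log2 difference between 48H and 24H was 0.44. In 43 members the 3 libraries at 48H lay above the 3 at 24H and in 0 below them, as they did for 14.7% and 12.9% of tested genes.

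**Figure D1:**
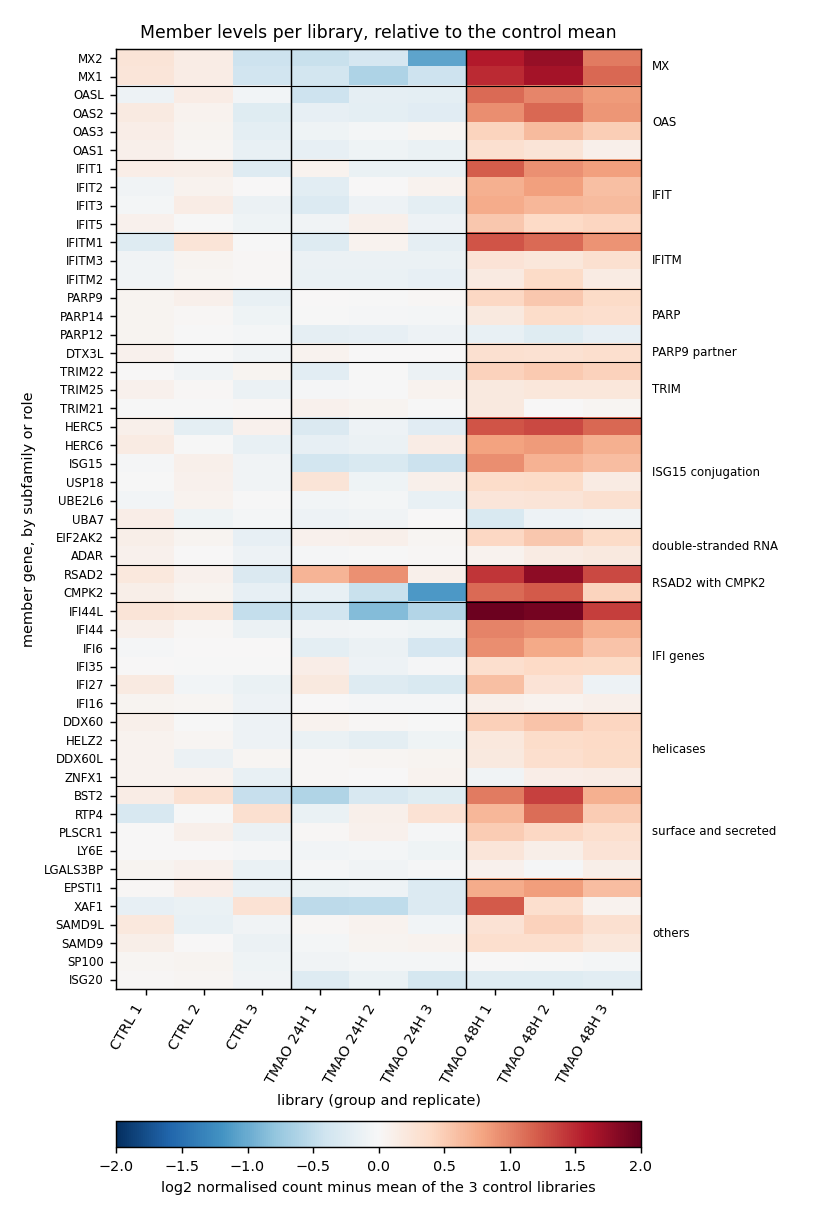
Level of each of the 51 members (rows, by subfamily or role) in each of the 9 libraries (columns), as log2 normalised count minus the mean of the 3 control libraries, with red for higher and blue for lower. The 3 columns at 48H are red for most rows, with library medians of 0.44, 0.41 and 0.38, while the 3 columns at 24H are close to white or pale blue, with medians of -0.079, -0.071 and -0.091.

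The control libraries were not alike for these genes, and CTRL replicate 3 also differed outside them. Its share of ribosomal RNA was 7.46%, against 1.89% and 1.64% in CTRL replicates 1 and 2. The median member lay 0.064 and 0.045 above the control mean on the log2 scale in CTRL replicates 1 and 2 and 0.097 below it in CTRL replicate 3, which had the lowest control level for 36 of the 51 members. That median of CTRL replicate 3 was lower than those of the 3 libraries at 24H (-0.079, -0.071 and -0.091). Without CTRL replicate 3, 45 members were lower than controls at 24H and 6 above them, with a median of -0.10 on the log2 scale. Leaving out CTRL replicate 1 instead gave 31 lower and 20 higher, with a median of -0.034. Leaving out CTRL replicate 2 gave 35 and 16, with a median of -0.048. At 48H without CTRL replicate 3, 34 members rose and the median was 0.37. At 48H, TMAO 48H replicate 3 was the lowest of its group for 30 members. Within groups the members had a median standard deviation of 0.101 on the log2 scale against 0.0927 for all tested genes, and a median percentile of 64.0 for that spread among genes of similar expression.

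**Figure D2:**
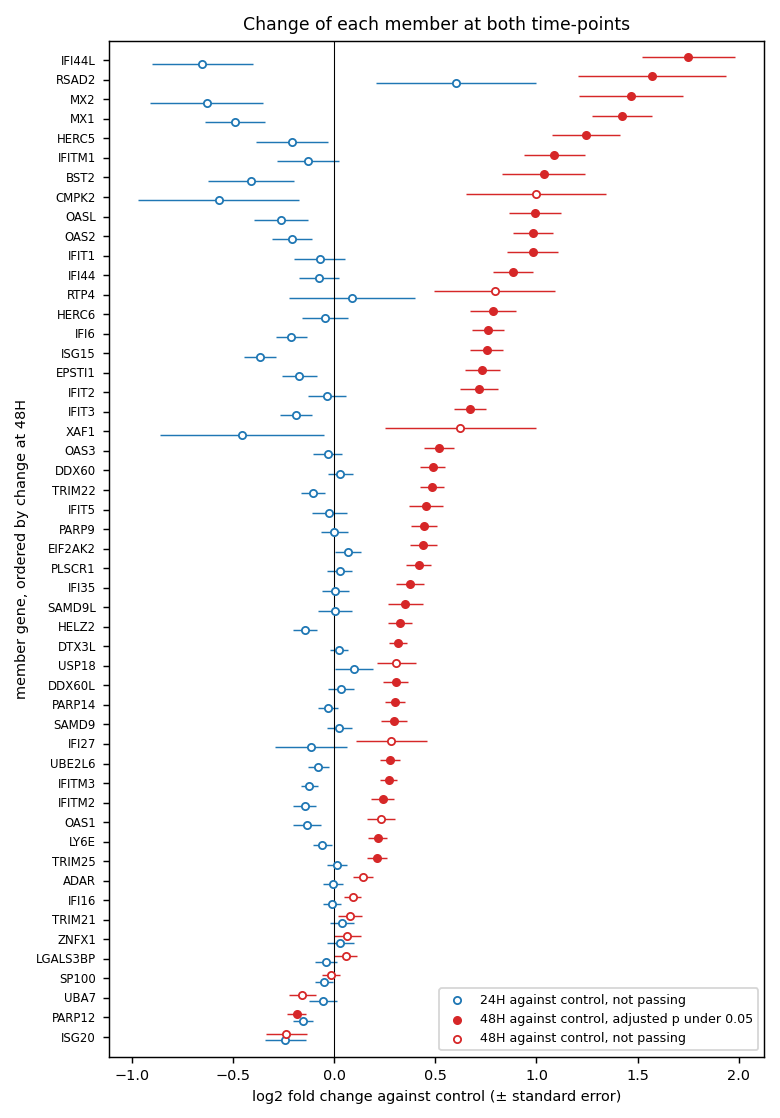
Log2 fold change against control with its standard error for each of the 51 members (rows, ordered by the change at 48H), at 24H in blue and at 48H in red, with filled points for an adjusted p under 0.05. Filled red points lie to the right for 36 members and to the left for PARP12 alone, and no blue point is filled.

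The MX genes encode dynamin-like GTPases that trap viral components in the cytoplasm or at the nuclear pore. Both of the 2 members rose at 48H. MX1 had 596, 559 and 387 normalised counts in the control libraries, 391, 329 and 379 at 24H and 1417, 1597 and 1118 at 48H. The 3 libraries at 48H were the highest of the 9, and those at 24H overlapped the lowest control. Means were 514 ± 111 (SD, n = 3) in controls and 1377 ± 242 (SD, n = 3) at 48H, a 2.68-fold rise (log2 fold change 1.42, SE 0.15, adjusted p = 9.48e-05). At 24H the log2 fold change of MX1 was -0.49 (SE 0.148, adjusted p = 0.493).

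MX2 had 38.9, 35.8 and 24.2 normalised counts in controls, 23.5, 25.4 and 15.2 at 24H and 97.8, 109 and 66.7 at 48H. As for MX1, CTRL replicate 3 was the lowest control and TMAO 48H replicate 3 the lowest library at 48H. Mean levels were 33 ± 7.78 (SD, n = 3), 21.4 ± 5.42 (SD, n = 3) and 91.2 ± 22 (SD, n = 3) in turn. The rise at 48H was 2.76-fold (log2 fold change 1.47, SE 0.255, adjusted p = 0.00334), and at 24H the log2 fold change was -0.63 (SE 0.279, adjusted p = 0.677). Tested directly, the level at 48H exceeded that at 24H by 1.91 for MX1 and 2.1 for MX2 on the log2 scale (adjusted p = 6.52e-06 and 0.000263).

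The OAS proteins bind double-stranded RNA and make a messenger that activates the RNA-degrading enzyme RNase L, while OASL lacks this activity and acts on RNA sensing. Of the 4 members, OASL, OAS2 and OAS3 rose at 48H and OAS1 did not pass. OASL, with the largest change of the 4, had 94.4, 112 and 97.7 normalised counts in controls, 76.2, 88.9 and 88.6 at 24H and 222, 199.9 and 184 at 48H. The 3 groups did not overlap: 24H was lowest and 48H highest. From 102 ± 9.62 (SD, n = 3) in controls it rose 1.99-fold at 48H to 202 ± 19.2 (SD, n = 3; log2 fold change 0.99, SE 0.129, adjusted p = 0.000509). The separation below controls at 24H did not pass (log2 fold change -0.26, adjusted p = 0.724). OAS2 rose by 0.98 and OAS3 by 0.52 on the log2 scale at 48H. OAS1 differed from control by 0.23 on the log2 scale without passing (adjusted p = 0.0522), and 1 of its libraries at 48H lay within the control range, but against 24H it passed (log2 difference 0.36, adjusted p = 0.00600). OAS1 did pass at 48H by DESeq2 (adjusted p = 0.0372), with at least 10 counts in every library (0.0456), and by edgeR without CTRL replicate 1 (0.0413) or TMAO 48H replicate 3 (0.0194).

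IFIT proteins recognise foreign RNA ends and hinder its translation. All 4 members rose at 48H. IFIT1, the one with the largest change, had 254, 249.9 and 193 normalised counts in controls, 243, 211 and 209 at 24H and 532, 437 and 408 at 48H. Control and 24H libraries lay in one range, and the lowest library at 48H stood well above it. The control mean was 232 ± 33.9 (SD, n = 3), the 24H mean 221 ± 18.9 (SD, n = 3) and the 48H mean 459 ± 64.7 (SD, n = 3), a 1.97-fold rise at 48H (log2 fold change 0.98, SE 0.126, adjusted p = 0.000435). IFIT2, IFIT3 and IFIT5 rose by 0.71, 0.67 and 0.45 on the log2 scale. At 24H the 4 log2 fold changes lay between -0.19 and -0.024, and 0 passed.

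The IFITM proteins sit in membranes and block the fusion of entering viruses. All 3 members rose at 48H, by 1.09 for IFITM1, 0.27 for IFITM3 and 0.24 for IFITM2 on the log2 scale. The call of IFITM2 was lost without CTRL replicate 1 (adjusted p = 0.0707) or TMAO 48H replicate 2 (0.07). IFITM1 had 97.3, 139 and 116 normalised counts in controls, 97.5, 122 and 102 at 24H and 278, 255 and 217 at 48H. Libraries of the first 2 groups overlapped fully, and those at 48H lay above both. The rise of IFITM1 was 2.13-fold, from 118 ± 21.1 (SD, n = 3) to 250.1 ± 30.6 (SD, n = 3), with a standard error of 0.151 and an adjusted p of 0.000787. For IFITM3 the levels were 7302, 7968 and 7824 in controls, 7067, 7056 and 7090.2 at 24H and 9305, 8983 and 9561 at 48H, so that every library at 24H lay below the controls and every library at 48H above them. The 24H difference of IFITM3 did not pass (log2 fold change -0.12, adjusted p = 0.543). These 3 genes are closely similar in sequence and IFITM1 overlaps IFITM2 in GENCODE release 29, so reads may be divided between them with some uncertainty.

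Of the PARP members, PARP9 and PARP14 rose at 48H and PARP12 fell. PARP9 acts in a complex with the ubiquitin ligase DTX3L, and PARP12 is a mono-ADP-ribosyltransferase that hinders virus replication. PARP9 had 1118, 1159 and 971 normalised counts in controls, 1080.0, 1070.3 and 1099 at 24H and 1446, 1572 and 1404 at 48H. The 24H libraries lay inside the control range. At 48H its mean of 1474 ± 87.6 (SD, n = 3) was 1.36-fold the 1083 ± 98.6 (SD, n = 3) of controls (log2 fold change 0.45, SE 0.0659, adjusted p = 0.00118). DTX3L rose by 0.32 and PARP14 by 0.30 on the log2 scale. PARP9 and DTX3L overlap on opposite strands in GENCODE release 29. The strand setting of the counting is not given in the sources used here, so reads of these genes cannot be fully told apart. In that release IFIT2, TRIM25, EIF2AK2 and ZNFX1 also overlap counted genes on the opposite strand. TRIM22, TRIM25 and UBA7 overlap counted genes on their own strand, so reads of these members may be shared too.

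PARP12 had 1403, 1341 and 1308 normalised counts in controls, 1191, 1199 and 1255 at 24H and 1216, 1143 and 1204 at 48H. All 6 treated libraries lay below all 3 controls. The fall at 48H was small, from 1351 ± 48.2 (SD, n = 3) to 1188 ± 39.1 (SD, n = 3), or 0.879-fold (log2 fold change -0.19, SE 0.0491, adjusted p = 0.0301). It lost its call without CTRL replicate 1 (adjusted p = 0.109), without CTRL replicate 2 (0.0793), without TMAO 48H replicate 2 (0.125), with the replicate number as a block (0.0649) and with only the 2 groups compared (0.0643). At 24H the log2 fold change was -0.15 (adjusted p = 0.515), and 48H against 24H gave -0.03 (adjusted p = 0.762).

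The TRIM proteins are ubiquitin ligases, of which TRIM25 modifies the RNA sensor RIG-I and TRIM21 binds antibody on entering virus. TRIM22 and TRIM25 rose at 48H, by 0.48 and 0.21 on the log2 scale, and TRIM21 did not pass (0.08, adjusted p = 0.451). TRIM25 lost its call without CTRL replicate 2 (adjusted p = 0.0503), without TMAO 48H replicate 2 (0.0658) and with the replicate number as a block (0.0525). TRIM22 had 942, 895 and 973 normalised counts in controls, 812, 936 and 867 at 24H and 1289, 1346 and 1296 at 48H. Its 48H libraries lay close together and above all others. The mean rose from 937 ± 39.4 (SD, n = 3) to 1310.0 ± 31.1 (SD, n = 3), a 1.398-fold change (SE 0.0593, adjusted p = 0.000328). This lies just below the 1.4-fold cut.

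**Figure D3:**
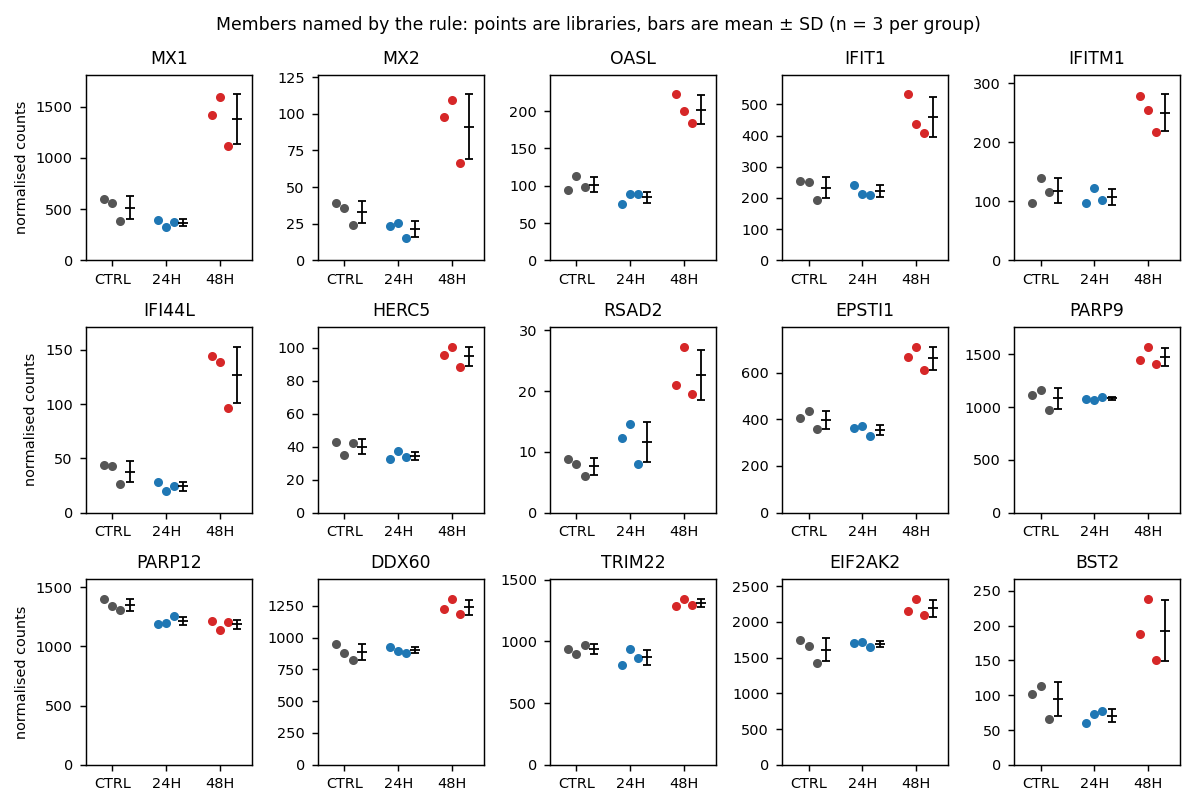
Normalised counts (vertical axes, from 0) of 15 members in control, 24H and 48H libraries; points are libraries and bars show the mean and SD of 3 libraries. For all genes but PARP12 the 3 red points at 48H lie above the grey control points and the blue points at 24H, and for PARP12 they lie below the controls.

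ISG15 is a ubiquitin-like protein that is attached to other proteins by the enzymes UBA7, UBE2L6 and HERC5 and removed by USP18, while HERC6 is a relative of HERC5. Of these 6 members, HERC5, HERC6, ISG15 and UBE2L6 rose at 48H. HERC5, the ligase, had 42.8, 34.8 and 42.3 normalised counts in controls, 32.5, 37.2 and 34 at 24H and 95.5, 100.4 and 88.6 at 48H. Its libraries at 48H were about alike and did not overlap any other. From 40 ± 4.47 (SD, n = 3) it rose 2.37-fold to 94.8 ± 5.92 (SD, n = 3), with a log2 fold change of 1.24 (SE 0.168, adjusted p = 0.000645). HERC6 rose by 0.79, ISG15 by 0.75 and UBE2L6 by 0.28 on the log2 scale. The activating enzyme UBA7 had a log2 fold change of -0.16 (adjusted p = 0.162) and USP18 one of 0.31 (adjusted p = 0.0546). USP18 did pass in 6 of the 18 fits, DESeq2 (adjusted p = 0.0489) and those without TMAO 24H replicate 1 (0.0455), TMAO 24H replicate 2 (0.0466) or TMAO 48H replicate 3 (0.0309) among them.

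ISG15 itself was the member with the lowest p at 24H, a choice made after the values were seen. It had 737, 801 and 715 normalised counts in controls, 581, 610.5 and 558 at 24H and 1434, 1219.7 and 1146 at 48H. The 3 groups did not overlap, with 24H lowest and 48H highest. At 24H its mean was 583 ± 26.4 (SD, n = 3) against 751 ± 44.8 (SD, n = 3) in controls, or -0.37 on the log2 scale, with an adjusted p of 0.168 by edgeR and 0.0352 by DESeq2. It also passed at 24H in the edgeR fit without TMAO 48H replicate 1, and in 2 of the 18 fits run in all. At 48H it reached 1267 ± 149.6 (SD, n = 3), 1.69-fold the control mean (adjusted p = 9.48e-05).

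EIF2AK2 (PKR) and ADAR act on double-stranded RNA, the former by halting translation and the latter by editing adenosine to inosine. EIF2AK2 had 1747, 1663 and 1428 normalised counts in controls, 1706, 1722 and 1646 at 24H and 2145, 2322 and 2098 at 48H. Its 24H libraries lay within the control range and its 48H libraries above it. The rise from 1613 ± 166 (SD, n = 3) to 2188 ± 118 (SD, n = 3) was 1.36-fold (log2 fold change 0.44, SE 0.0665, adjusted p = 0.00133). For ADAR the log2 fold change at 48H was 0.14 (adjusted p = 0.0887) and the groups overlapped, while DESeq2 gave an adjusted p of 0.0397 and edgeR without TMAO 48H replicate 1 one of 0.0434.

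RSAD2 (viperin) makes a nucleotide that ends viral RNA chains, and CMPK2, its neighbour on the genome, supplies the precursor. RSAD2 had 8.76, 7.96 and 6.05 normalised counts in controls, 12.3, 14.5 and 8.06 at 24H and 21, 27.3 and 19.6 at 48H. It was the 1 member among the 3 largest changes at 24H with a positive sign, and 1 of its libraries at 24H lay within the control range. At 48H the mean of 22.6 ± 4.13 (SD, n = 3) was 2.97-fold the 7.59 ± 1.4 (SD, n = 3) of controls (log2 fold change 1.57, SE 0.366, adjusted p = 0.0164). At 24H the log2 fold change was 0.60 (SE 0.395, adjusted p = 0.818), and the direct difference between 48H and 24H did not pass (0.97, adjusted p = 0.111). At these low counts the rise at 48H lost its call without CTRL replicate 2, CTRL replicate 3 or TMAO 48H replicate 2, with adjusted p from 0.0512 to 0.0854.

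CMPK2 had 13.6, 12.9 and 11.1 normalised counts in controls, 11.2, 9.07 and 5.37 at 24H and 27.9, 29.9 and 17.3 at 48H. All 48H libraries lay above the others, but the difference from control did not pass (log2 fold change 1.0, SE 0.347, adjusted p = 0.0849), while that from 24H did (1.57, adjusted p = 0.0191). Without TMAO 48H replicate 3 the difference from control passed (adjusted p = 0.0483). That from 24H was lost without TMAO 24H replicate 2 (0.0582), TMAO 24H replicate 3 (0.0912), TMAO 48H replicate 1 (0.0502) or TMAO 48H replicate 2 (0.0989). RSAD2 and CMPK2 overlap on opposite strands in GENCODE release 29, with the same limit as for PARP9 and DTX3L.

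Among the 6 members named IFI, IFI44L, IFI44, IFI6 and IFI35 rose at 48H. IFI44L had 43.8, 42.8 and 26.2 normalised counts in controls, 28, 20 and 24.2 at 24H and 144, 139 and 96.7 at 48H. TMAO 48H replicate 3 was below the other 48H libraries and still above every control. Group means were 37.6 ± 9.89 (SD, n = 3) for controls, 24 ± 4.03 (SD, n = 3) for 24H and 127 ± 26.2 (SD, n = 3) for 48H. The 3.36-fold rise at 48H had a log2 fold change of 1.75 (SE 0.229, adjusted p = 0.000528), the highest of the 51 members. At 24H the log2 fold change was -0.65 (SE 0.249, adjusted p = 0.615), the lowest of the 51. IFI44 rose by 0.88, IFI6, which limits cell death from a mitochondrial site, by 0.76 and IFI35 by 0.37 on the log2 scale. IFI16, a DNA sensor, did not pass (0.09, adjusted p = 0.208), and neither did IFI27 (0.28, adjusted p = 0.340), whose lowest library at 48H lay within the control range.

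Among the helicases, DDX60, its neighbour DDX60L and HELZ2 rose at 48H and ZNFX1 did not pass (0.07, adjusted p = 0.573). DDX60, which promotes RNA sensing, had 950.1, 879 and 824 normalised counts in controls, 929.8, 898 and 883 at 24H and 1225, 1305 and 1189.8 at 48H. Values at 24H fell inside the control range. The rise was 1.4-fold, from 884 ± 63.1 (SD, n = 3) to 1239.8 ± 59.2 (SD, n = 3) (log2 fold change 0.49, SE 0.0608, adjusted p = 0.000363). HELZ2 rose by 0.33 and DDX60L by 0.30 on the log2 scale.

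Of the 5 members at the cell surface or secreted, BST2, PLSCR1 and LY6E rose at 48H. BST2 (tetherin), which holds budding virus to the cell surface, had 102, 113 and 66.5 normalised counts in controls, 60.5, 73.5 and 77.9 at 24H and 189, 239 and 151 at 48H. CTRL replicate 3 fell among the 24H libraries, and the lowest 48H library lay above the highest control. Its mean rose 2.05-fold, from 94.1 ± 24.5 (SD, n = 3) to 193 ± 44.1 (SD, n = 3) (log2 fold change 1.04, SE 0.206, adjusted p = 0.00696). PLSCR1 rose by 0.42 and LY6E by 0.22 on the log2 scale. RTP4, a chaperone with low counts here, had a log2 fold change of 0.79 with a standard error of 0.297 (adjusted p = 0.108), and the secreted glycoprotein LGALS3BP one of 0.06 (adjusted p = 0.569).

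The remaining 6 members have other or less settled roles, and 3 of them, EPSTI1, SAMD9L and SAMD9, rose at 48H. EPSTI1 had 403, 433 and 358 normalised counts in controls, 362, 370.1 and 329 at 24H and 665, 709 and 609.9 at 48H. Its 48H libraries did not overlap the others. The rise was 1.66-fold, from 398 ± 38 (SD, n = 3) to 661 ± 49.6 (SD, n = 3) (log2 fold change 0.73, SE 0.0877, adjusted p = 0.000270). SAMD9L and SAMD9, which restrict poxviruses, rose by 0.35 and 0.30 on the log2 scale. Without TMAO 48H replicate 2 neither passed (adjusted p = 0.0973 and 0.0502), and SAMD9L also lost its call without CTRL replicate 2 (0.0926) or CTRL replicate 3 (0.0662). SP100, a nuclear body protein, had a log2 fold change of -0.01 (adjusted p = 0.871). XAF1 had one of 0.62 (adjusted p = 0.315), with 31.4, 16.7 and 13.8 normalised counts at 48H, so that 1 library set most of the mean. ISG20, an RNA exonuclease, had 201, 202 and 188 normalised counts in controls, 165, 181 and 155 at 24H and 166, 166 and 169 at 48H, and its 6 treated libraries lay below the controls without passing at 48H (log2 fold change -0.24, adjusted p = 0.161).

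**Figure D4:**
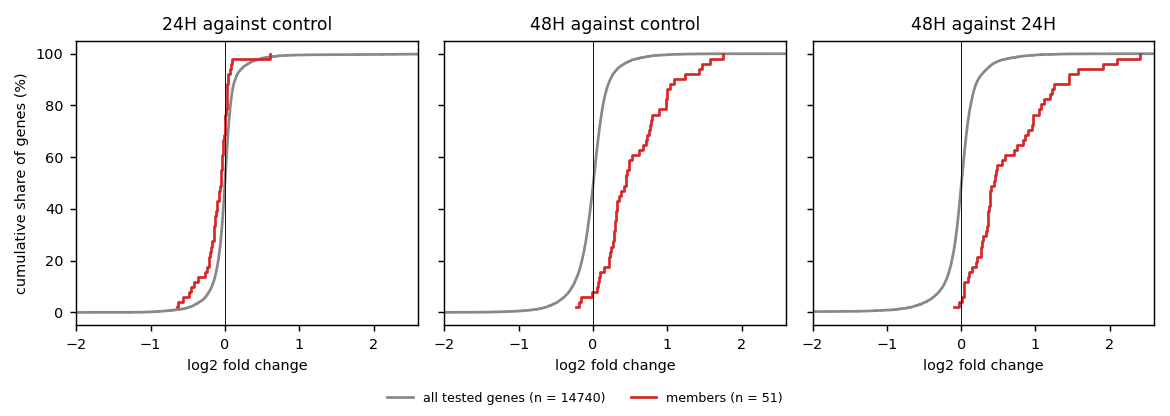
Cumulative share of genes (vertical axis, %) by log2 fold change (horizontal axis) for the 51 members in red and all 14740 tested genes in grey, in the 3 comparisons. The member curve runs to the right of the grey curve at 48H, with medians of 0.44 and 0.0040, and slightly to its left at 24H, with medians of -0.058 and -0.00042.

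The ISRE core was set beside these changes as a description, with no test. Of the 27 members whose promoter holds it, 21 rose at 48H, with a median log2 fold change of 0.49. Of the 14 members whose promoter was searched without a match, 8 rose, with a median of 0.34. RSAD2, CMPK2, PARP9 and HERC6 were among those without these letters in the window. Among all 303 tested genes with the core, members included, 45 rose at 48H (14.9%) and the median log2 fold change was 0.047. Among the 10092 without it, 540 rose (5.35%) and the median was 0.0061. With the members left out, 24 of 276 genes with the core rose (8.7%), with a median of 0.026, and 532 of 10078 without it (5.28%), with a median of 0.0056. At 24H 0 of the 303 passed in either direction. For GAS, 7 of the 9 members with a match rose at 48H, and 22 of the 32 searched without one. Their median log2 fold changes were 0.42 and 0.44. With the members left out, 33 of 643 tested genes with GAS rose (5.13%), and 523 of 9711 without it (5.39%).

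**Figure D5:**
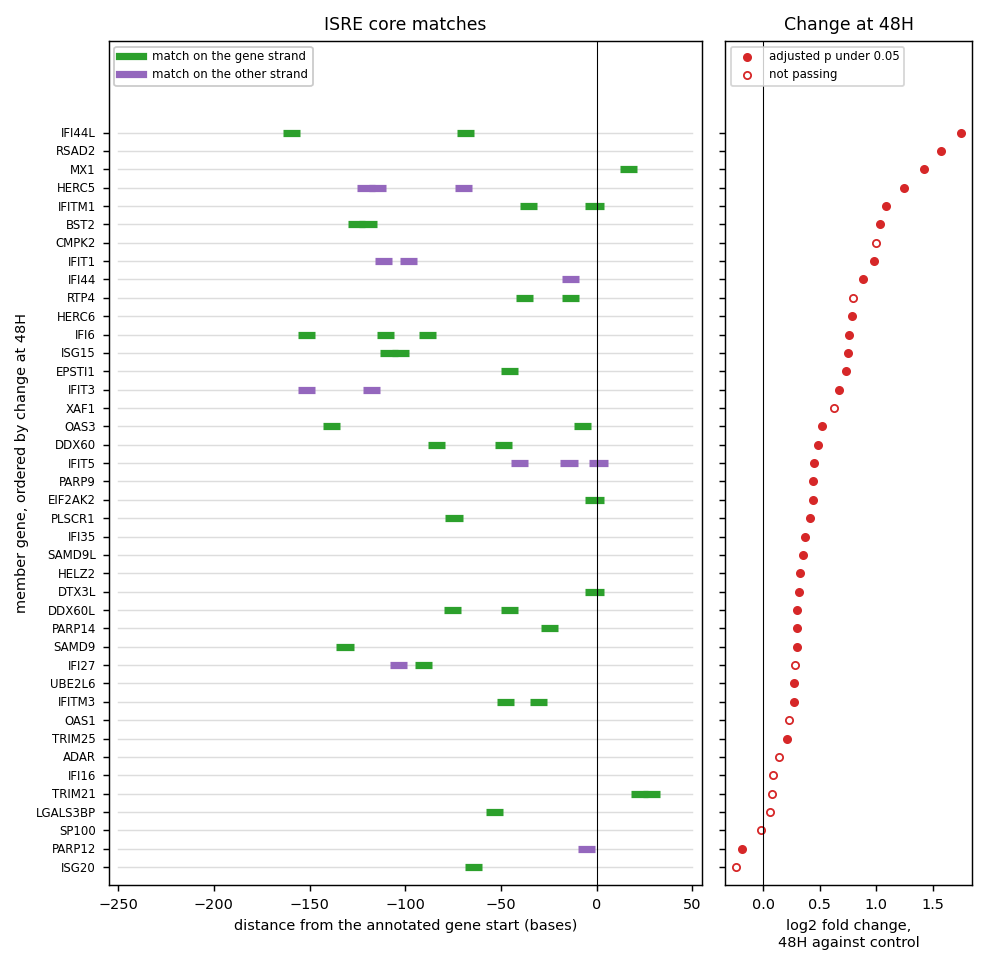
Left, positions of the ISRE core in the 41 member promoters (horizontal axis, bases from the gene start; green on the strand of the gene, purple on the other strand); right, log2 fold change of the same gene at 48H. Matches occur in 27 rows and lie mostly before the start, both for genes with large changes such as IFI44L and for PARP12 and ISG20 at the bottom.

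Another 46 genes of the interferon pathway were listed (ligands, receptors, kinases, transcription factors, sensors with their adaptors, and inhibitors), of which 33 were tested. Whether their changes came before or after those of the members was not tested. At 48H 7 of the 33 rose and 0 fell by edgeR, where 5.14% and 5.29% of all tested genes did. An unadjusted p under 0.05 was reached by 16 with a rise and 1 with a fall, against 13.2% and 12.6% of all tested genes, and DESeq2 gave 8 and 0. At 24H 0 passed by edgeR or DESeq2, and an unadjusted p under 0.05 was found for 3 with a rise and 2 with a fall (2.77% and 4.47% of all tested genes). Between 48H and 24H 6 rose and 0 fell by either tool, where 3.77% of all tested genes passed in each direction. With p left unadjusted the counts were 10 and 1, where the shares of all tested genes were 11.6% and 10.5%.

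Few interferon transcripts were counted at this depth. Of 13 ligand genes listed, 10, among them IFNB1, IFNG and the 3 IFNL genes, had 0 counts in all 9 libraries, which allows up to 3 counts per library, or 0.0812 to 0.119 CPM. This limit covers counting error only. IFNA1 had 2 counts in 1 library, and IFNK had 6 counts over all libraries. IFNE, the 1 ligand that passed the filter, had 15.6, 8.96 and 11.1 normalised counts in controls, 5.6, 5.44 and 5.37 at 24H and 4.66, 7.05 and 15 at 48H, and passed in neither comparison with control (adjusted p = 0.686 and 0.621). Interferon protein was not analysed here.

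Among receptors IL10RB, shared by the receptors of interferon lambda and interleukin 10, rose by 0.20 on the log2 scale at 48H (adjusted p = 0.0357). Of the 9 fits without 1 library, IL10RB lost its call in 6 (adjusted p from 0.0544 to 0.126). It kept the call without CTRL replicate 1, TMAO 24H replicate 1 or TMAO 24H replicate 3. The call of IL10RB was also lost with no expression filter (0.0528), with only the 2 groups compared (0.0703) and with the replicate block (0.0744). IFNAR1, chosen after its values were seen like DDX58, TLR3, STAT2, IRF9 and IRF7 here, rose by 0.16 (adjusted p = 0.0314). IFNAR1 lost its call without CTRL replicate 1, CTRL replicate 3, TMAO 24H replicate 1, TMAO 48H replicate 2 or TMAO 48H replicate 3 (adjusted p from 0.0509 to 0.134). The same happened with no expression filter (0.0546) and with only the 2 groups compared (0.0751). The kinase JAK2 had 678, 607 and 692 normalised counts in controls, 739, 736 and 713 at 24H and 812, 823 and 762 at 48H, a rise of 0.28 on the log2 scale at 48H (adjusted p = 0.0146), which was lost without CTRL replicate 2 (0.0679) or TMAO 48H replicate 2 (0.0680). The log2 fold change at 48H was -0.07 for STAT2 (adjusted p = 0.437), 0.19 for IRF9 (adjusted p = 0.0605) and 0.26 for IRF7 (adjusted p = 0.0656). Against 24H, IRF9 and IRF7 passed with log2 differences of 0.32 and 0.29, and that of IRF7 was lost without any 1 library other than CTRL replicate 3 (adjusted p from 0.0501 to 0.159). The IRF7 call against 24H was also lost with RLE factors (0.0517), with no expression filter (0.0535) and with the replicate block (0.0591). IRF9 passed at 48H without TMAO 48H replicate 1 (adjusted p = 0.0247).

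The largest rise in this list was that of IFIH1 (MDA5), a sensor of long double-stranded RNA. It had 299, 336 and 258 normalised counts in controls, 245, 219 and 266 at 24H and 495, 511 and 512 at 48H. The 48H libraries were far above the rest, and 1 of those at 24H lay within the control range. The rise was 1.7-fold (log2 fold change 0.76, SE 0.103, adjusted p = 0.000637), and the difference between 48H and 24H was 1.06 (adjusted p = 3.58e-05). TLR3, which senses double-stranded RNA in endosomes, rose by 0.63 (adjusted p = 0.00194) and DDX58 (RIG-I) by 0.38 (adjusted p = 0.00511). Of the 4 inhibitors listed, 0 passed by edgeR at either time-point.

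Markers of cell type moved at 48H as well. All 12 endothelial markers listed, PECAM1, CDH5 and VWF included, were expressed and tested, as the label of the line would have it. Their summed normalised counts ranged from 91269 to 101439 in controls, 91000.5 to 96745 at 24H and 80278 to 87445 at 48H. At 48H 8 of the 12 fell and 0 rose, where 5.29% of all tested genes fell and 5.14% rose. Of 10 fibroblast and smooth muscle markers 8 were tested, and the sum was 31925 to 36405 in controls and 22119 to 23907 at 48H, where 2 rose and 2 fell. Only 2 of 10 leukocyte markers were tested, with CD3E, FCGR3A and CLEC4C at 0 counts in every library and a sum of 595 to 681 in controls and 676 to 720 at 48H. Of 5 keratinocyte markers 4 were tested, with a sum of 1878 to 3108 in controls and 2837, 2186 and 373 in the libraries at 48H, so that TMAO 48H replicate 3 stood apart from the others. Without it, 39 members rose at 48H and their median log2 fold change was 0.47. In RNA from a whole culture, fewer cells of a type and less RNA per cell cannot be told apart. The part of these shifts in the rise of the effector genes was not tested.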

How the data were processed

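Reads went through the nf-core RNAseq pipeline, version 3.6, and the values the authors deposited are estimated counts (expected counts, which need not be whole) for each gene, without normalisation. Trim Galore is named in the submitters' processing notes, and the aligner, quantifier, genome build and annotation are not given in the sources used here. Groups and replicate numbers came from the labels.

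These values were rounded. The main test was that of edgeR 4.0.16 in R 4.3.3, with filterByExpr (14740 of 29740 genes kept), TMM factors and a quasi-likelihood fit (glmQLFit with legacy = FALSE) of all 9 libraries, with Benjamini-Hochberg adjustment over all tested genes. Standard errors were derived from the F statistic. The biological coefficient of variation was 0.0744. The smallest p that exact permutation of 3 libraries against 3 allows is 0.1, so p-values come from edgeR's fit across all genes. Replicate libraries differed by more than sampling noise.

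The members and all gene lists were chosen with earlier results of these data known. Values in every library are given, by rule, for the member with the largest change at 48H in each subfamily or role, the 5 largest rises and any passing fall at 48H, members passing at 24H, and the 3 largest changes at 24H, 15 members in all. Library values of other genes were added after they were seen. Of the other pathway genes, the rule names the passing gene with the largest change in each role, of which 1 is not reported here.

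Alternatives were DESeq2 1.42.0, RLE factors, no filter, at least 10 counts in every library, only the 2 groups compared, a block for the replicate number, the older quasi-likelihood fit, at least a 1.4-fold change, ribosomal RNA genes removed, and each library left out in turn. Gene overlaps were read from GENCODE release 29, and neighbours and promoters from RefSeq.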

Additional observations from a re-analysis of the deposited data

Results flagged for a closer look

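For 13 of the 15 members whose library values were given by rule, the level differed between the treated groups by edgeR's direct test of 48H against 24H, which is why they are listed. This test does not tell TMAO apart from time in culture. On the log2 scale the level at 48H exceeded that at 24H by 2.4 for IFI44L, 2.1 for MX2, 1.91 for MX1, 1.45 for HERC5, 1.45 for BST2, 1.25 for OASL, 1.22 for IFITM1, 1.05 for IFIT1 and 0.90 for EPSTI1. The differences were smaller for TRIM22 (0.59), DDX60 (0.46), PARP9 (0.44) and EIF2AK2 (0.37). Adjusted p-values of the 13 ranged from 6.52e-06 (MX1) to 0.00370 (EIF2AK2), and in each of them all 3 libraries at 48H lay above all 3 at 24H. The remaining members, RSAD2 (adjusted p = 0.111) and PARP12 (adjusted p = 0.762), did not pass this test. Since 3.77% of all tested genes passed with a rise in the same comparison, such a difference was not limited to these genes. The 15 members were mostly picked for large changes at 48H or 24H in the same libraries. Their number passing is therefore no independent result and cannot be set against the share of all genes.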

How the results depend on the processing

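Under the 8 other fits that left out no single library (1 of them with only the 2 groups compared) the number of members that rose at 48H ranged from 35 to 38, and 31 members rose in all 18 fits run, including the 9 without 1 library. The share of all tested genes that rose in every fit was not counted. Genes passing at 48H in either direction ranged from 700 (without TMAO 48H replicate 2) to 1704 (DESeq2). The 5 members that rose in the main test but not in every fit were RSAD2, IFITM2, SAMD9, SAMD9L and TRIM25. Asking for at least a 1.4-fold change left 19 members higher and 0 lower at 48H, 19 higher between 48H and 24H, 2 pathway genes higher at 48H (IFIH1 and TLR3) and 1 between 48H and 24H. The fall of PARP12 at 48H was lost with only the 2 groups compared and with the replicate block, giving 0 members lower in both. DESeq2 gave 1 member lower at 24H, and it returned no adjusted p at 48H for 4 members, RSAD2, CMPK2, XAF1 and RTP4. Leaving out single libraries gave 31 to 39 members higher and 0 to 1 lower at 48H, 0 to 0 higher and 0 to 1 lower at 24H, 32 to 38 higher and 0 to 0 lower between 48H and 24H, and 4 to 8 pathway genes higher at 48H and 4 to 6 between the time-points. The lowest value at 48H was reached without TMAO 48H replicate 2, for members and for pathway genes (4). Without CTRL replicate 3 the sign at 24H turned for 9 of the 51 members, all above control with it. Among the 15 members given by rule, the sign at 24H turned for DDX60 (-0.015), EIF2AK2 (-0.0087) and PARP9 (-0.069) without CTRL replicate 3, for PARP9 (-0.0100) without TMAO 24H replicate 3 and for IFITM1 (0.011) without CTRL replicate 2. Over the fits without 1 library these 24H values reached 0.085 for DDX60, 0.13 for EIF2AK2, 0.052 for PARP9 and, at the other end, -0.25 for IFITM1. With the replicate number as a block, 35 members rose at 48H and 35 between 48H and 24H, and over all genes 948 passed at 48H against 1537 without the block. Once group means were removed, the 9 pairs of libraries that share a number correlated across genes between -0.15 and 0.11. The 18 other pairs correlated between -0.12 and 0.14. No pairing by number was seen, though a weak one could be missed with 3 libraries in each group. With only the 2 groups compared, 981 genes passed at 48H. Members with few counts, such as RSAD2, had standard errors of up to 0.41, and log2 differences of 1.0 (CMPK2 at 48H) and 0.97 (RSAD2 between 48H and 24H) did not pass. The causes of these shifts were not tested.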

Other observations

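Many of the effector genes lie side by side on the genome. In RefSeq, 13 pairs of members are adjacent protein-coding genes, which involves 24 of the 51 members. Both genes rose at 48H in 11 of these pairs, where 36 of all 51 members rose. The share for adjacent pairs over all genes was not counted. The log2 fold changes at 48H within a pair were 1.47 and 1.42 for MX2 and MX1 on chromosome 21, 1.75 and 0.88 for IFI44L and IFI44 on chromosome 1, and 1.24 and 0.79 for HERC5 and HERC6 on chromosome 4. Values were closer together for IFIT2 and IFIT3 on chromosome 10 (0.71 and 0.67) and for SAMD9L and SAMD9 on chromosome 7 (0.35 and 0.30). In the OAS cluster on chromosome 12 they differed along the row, with 0.23 for OAS1, which did not pass, 0.52 for OAS3 and 0.98 for OAS2. On chromosome 11 IFITM1 had 1.09, while its neighbours IFITM2 and IFITM3 had 0.24 and 0.27. Differences within a pair were not tested.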
